A study of Mus musculus with 6 samples.

Results

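GABAergic *Trh* neurons outside the paraventricular nucleus were examined in single-nucleus RNA sequencing (nucSeq) of the whole mouse hypothalamus. A nucleus was taken as a member when it held at least 1000 unique molecular identifiers (UMIs), at least 3 UMIs of *Trh*, at least 2 UMIs of *Gad1*, *Gad2* and *Slc32a1* together, no UMI of *Sim1* or *Slc17a6* and fewer than 2 of *Agrp*. This gave 104 members among 39665 nuclei of that depth, or 0.262%, and 39953 barcodes were deposited in all. The members made up 0.988% of the nuclei with at least 2 UMIs of the 3 GABAergic genes. The mice were male, wild-type C57Bl/6 animals aged 6 to 8 weeks, 12 of them fed ad libitum and 6 fasted for 16 h. Hypothalami were pooled in groups of 6 mice, the fed mice in 2 pools processed on different days and the fasted mice in 1 pool. Nuclei of each pool, stained with DRAQ5, were sorted into 2 tubes, and each tube became 1 droplet library, so there were 4 fed and 2 fasted libraries. The labels do not say which fed libraries share a pool.

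*Trh* encodes the precursor of thyrotropin-releasing hormone, a peptide of 3 amino acids. The well-known *Trh* neurons of the paraventricular nucleus are glutamatergic, carry the transcription factor *Sim1* and drive the pituitary-thyroid axis through the median eminence. *Trh* is also made by GABAergic neurons elsewhere in the hypothalamus, including the arcuate nucleus and the dorsomedial and tuberal regions, which use an inhibitory transmitter beside the peptide. The precursor is cut by prohormone convertases at pairs of basic residues, trimmed by a carboxypeptidase, and the glutamine and the glycine at the ends of each copy are turned into the blocked ends of the mature hormone.

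The mouse *Trh* gene (ENSMUSG00000005892) lies on the minus strand of GRCm38 at chr6:92242061-92244650 and has 3 exons. Its coding sequence of 768 bases was searched in frame for the codons CAG or CAA, CAC or CAT, CCN and GGN, which encode glutamine, histidine, proline and glycine, and 5 copies were found, all in exon 3. They are shown because they are the part of the measured transcript that becomes the hormone. Capitals mark these 4 codons, and the lower-case codons on either side are those for the basic residues at which the precursor is cut.
Trh repeat 1: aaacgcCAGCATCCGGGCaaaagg
Trh repeat 2: aaacgaCAGCACCCTGGCcgacgt
Trh repeat 3: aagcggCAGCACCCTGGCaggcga
Trh repeat 4: aagaggCAGCATCCAGGCcggagg
Trh repeat 5: aaacgtCAGCATCCTGGCaaaagg
In the order shown, the stretches lie on the minus strand of GRCm38 at chr6:92243088-92243111, chr6:92242992-92243015, chr6:92242857-92242880, chr6:92242803-92242826 and chr6:92242710-92242733. All 5 copies had a pair of codons for lysine or arginine on both sides. Of 21806 mouse genes whose longest coding sequence was searched on the coding strand, 72 (0.330%) held this run of codons at least once in frame, and *Trh* was the only one of them with more than 1 copy or with a copy between basic pairs.

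The libraries did not contribute evenly. Fed libraries 1 to 4 held 1, 2, 43 and 53 members, and fasted libraries 1 and 2 held 3 and 2. As shares of the nuclei with at least 1000 UMIs these are 0.0119%, 0.0301%, 0.676% and 0.831% in the fed and 0.0502% and 0.0341% in the fasted libraries. Fed libraries 3 and 4 thus held 96 of the 104 members (92.3%), and fed libraries 1 and 2 lay below both fasted ones. These libraries also stood apart in other ways: total UMIs per library ran from 31757655 to 59940795, and median depth was 8743 and 8831.5 UMIs a nucleus in fed libraries 3 and 4 against 4431, 4529, 5982 and 5954 in fed libraries 1 and 2 and fasted libraries 1 and 2. The share of UMIs from ribosomal protein genes was 1.83% and 1.85% in fed libraries 3 and 4 and between 0.290% and 0.435% in the others. GABAergic nuclei made up 46.1% and 45.5% of nuclei there and between 14.9% and 20.2% elsewhere.

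The level of *Trh* in the whole library moved with this split. It was 22.3, 19.8, 150 and 141 CPM (UMIs of the gene per 1000000 UMIs) in fed libraries 1 to 4, and 9.04 and 7.79 CPM in the fasted libraries. *Oxt*, which encodes oxytocin, moved the same way, at 49.4, 73.9, 871 and 1039 CPM in the fed and 21.8 and 17 CPM in the fasted libraries. *Agrp*, the feeding peptide of the arcuate nucleus, differed far less, at 61.1, 61.4, 83.6 and 84.8 CPM against 59.2 and 55.0 CPM. Neither *Nkx2-4*, at 3.11, 4.19, 6.38 and 5.96 CPM in the fed and 6.55 and 6.78 CPM in the fasted libraries, nor *Agrp* set fed libraries 3 and 4 as far apart as *Trh* did. Free RNA was gauged in 1466 nuclei with at least 10 UMIs of oligodendrocyte markers, in which a *Trh* UMI was found in 5 of 163, 4 of 139, 4 of 37 and 6 of 50 nuclei of the fed and 7 of 512 and 3 of 565 of the fasted libraries. These nuclei differed in depth, with medians of 1822, 1782, 6741 and 6674.5 UMIs in the fed and 2523.5 and 2582 UMIs in the fasted libraries. Their summed *Trh* level was 17, 12, 18.3 and 16.6 CPM in the fed and 4.33 and 1.60 CPM in the fasted libraries. In fed library 1, 1 of these nuclei held 3 or more *Trh* UMIs. The few nuclei with *Trh* do not allow a comparison of these levels between the fed libraries. The part of depth, ribosomal share, free RNA and dissection in the number of members was not tested. Library and nutritional state cannot be told apart for most members, so the class comparisons were also fitted in fed libraries 3 and 4 alone.

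**Figure D1:**
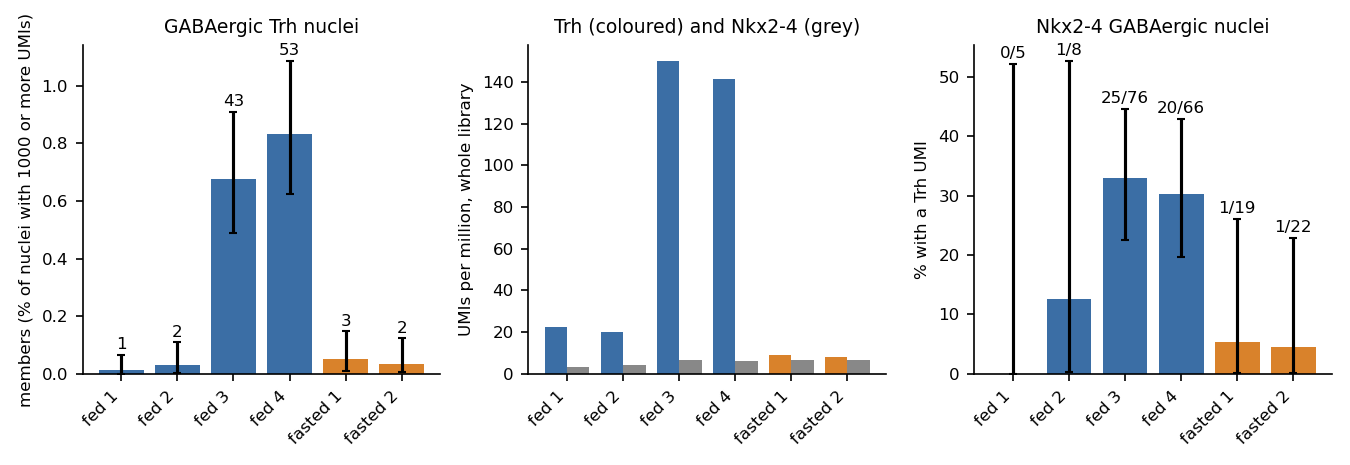
Members as a share of nuclei (left, with 95% exact binomial intervals and the number of members), *Trh* and *Nkx2-4* in CPM of the whole library (middle), and the share of *Nkx2-4*-positive GABAergic nuclei with a *Trh* UMI (right, with intervals and counts), for 4 fed (blue) and 2 fasted (orange) libraries. Fed libraries 3 and 4 hold 96 of 104 members and the highest *Trh* level, while *Nkx2-4* lies between 3.11 and 6.78 CPM in all 6 libraries.

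The mean share of members was 0.387% ± 0.428 (SD, n = 4 libraries) in the fed and 0.0421% ± 0.0114 (SD, n = 2 libraries) in the fasted state. The difference of -0.345 percentage points was smaller than the spread between fed libraries (two-sided exact permutation test over 15 arrangements, p = 0.467, where the smallest p possible is 0.0667). The test and the SDs take each library as a sample, although tubes of 1 pool are not separate animals. The difference was -0.0499 percentage points after thinning each nucleus to 2000 UMIs, -0.227 with *Trh* of at least 5 and -0.197 without fed library 4. Against fed libraries 1 and 2 alone the difference was 0.0212 percentage points in the other direction.

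The members were chosen by their *Trh*, *Gad1*, *Gad2*, *Slc32a1*, *Sim1*, *Slc17a6* and *Agrp* UMIs, which are given as a description. The members held 863 *Trh* UMIs, with a median of 5 per nucleus, a lowest value of 3, a highest of 108 and a next highest of 28. Exactly 3 *Trh* UMIs, the threshold, were found in 33 members, and 26 had 10 or more. Summed over members, *Trh* stood at 1010, 570, 1137 and 986 CPM in fed libraries 1 to 4 and at 976 and 557 CPM in the fasted libraries. Every member of fed libraries 1 and 2 and of fasted library 2 held exactly 3 *Trh* UMIs, so these levels are set by the threshold and the depth. In the 444 glutamatergic *Trh* nuclei (at least 3 *Trh* UMIs, at least 1 of *Slc17a6* and at most 1 of the 3 GABAergic genes) the level was 788, 843, 2216 and 2198 CPM in the fed and 474 and 480 CPM in the fasted libraries. The summed GABAergic UMIs of a member had a median of 4, and 28 members stood at the threshold of 2.

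The label was checked against markers. All 104 members had a UMI of *Snap25*, *Rbfox3* or *Syt1*, which mark neurons, and 100 had UMIs of at least 2 of these genes. *Slc17a7* and *Slc17a8*, the vesicular glutamate transporters that the rule did not use, were at 0. Neither reached the count filter in the comparison with *Trh* glutamatergic nuclei, so their 0 does not test the label. Of the paraventricular markers, *Otp* was found in 3 members and *Crh* in 5, whereas *Pou3f2* was found in 20, *Oxt* in 68 and *Avp* in 60, and *Pou3f2* was called higher than in other GABAergic nuclei. In fed libraries 3 and 4 an *Oxt* UMI was found in 70.8% of members at a median of 7266.5 UMIs and in 75.9% of oligodendrocyte-marker nuclei at a median of 6741 UMIs, so that share was at the level of the background. A UMI of an oligodendrocyte marker was present in 52 members, of a microglial marker in 32 and of a tanycyte marker in 21. Of the members, 32 were marked as possible doublets (2 or more UMIs summed over oligodendrocyte, astrocyte, microglial and endothelial markers, or total UMIs in the top 5% of the library). The mark was common among all nuclei. In fed library 3, 28 of 43 members and 3790 of 6360 nuclei were free of it, and in fed library 4, 40 of 53 and 3658 of 6378. In fasted libraries 1 and 2, 1 of 3 and 0 of 2 members were free of it, beside 2885 of 5974 and 2691 of 5873 nuclei. No member of fed libraries 1 and 2 was marked. Of 152 barcodes that occurred in more than 1 library, 2 belonged to a member, and no barcode was shared by 2 members.

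*Nkx2-4* (ENSMUSG00000054160, chr2:147083316-147085445, minus strand) encodes a homeobox transcription factor of the ventral hypothalamus and was one of the genes to be reported in these nuclei. It was found in 29 of 104 members (27.9%, 95% exact binomial interval 19.5 to 37.5%), and in 0, 0, 16 and 12 members of fed libraries 1 to 4 and 1 and 0 of the fasted libraries. Of these 29, 21 had 1 UMI, 8 had 2 or more and the highest had 4. Among 7022 nuclei that met the rule except that *Trh* was at 0 (the *Trh*-negative GABAergic nuclei), the share was 2.11% at a median of 7040 UMIs, against a median of 7166 UMIs in members. It was 2.48% in *Trh* glutamatergic nuclei and 0.682% in oligodendrocyte-marker nuclei. In fed libraries 3 and 4 alone, the shares were 29.2% of members, 2.88% of *Trh*-negative GABAergic nuclei, 2.97% of *Trh* glutamatergic nuclei and 4.60% of oligodendrocyte-marker nuclei. After each nucleus was thinned to 2000 UMIs, the shares were 7.69%, 0.758%, 0.903% and 0.188%, in the same order over all libraries.

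Summed over members, *Nkx2-4* stood at 0, 0, 63.8 and 39.9 CPM in fed libraries 1 to 4 and at 54.2 and 0 CPM in the fasted libraries. In *Trh*-negative GABAergic nuclei of the same libraries it was 0.985, 1.61, 4.20 and 3.83 CPM, and 2.93 and 3.29 CPM. The members lay above this class in fed libraries 3 and 4. In fasted library 1 the level rests on 1 UMI, and a level of this size was not detectable in the other 3 libraries, whose members held 2970, 10535 and 10778 UMIs in all. The log2FC of members over *Trh*-negative GABAergic nuclei was 3.76 (standard error 0.39, adjusted p = 1.69e-17 by edgeR's quasi-likelihood test with the pool as a block), and the gene passed the threshold under 17 of 17 alternatives. In fed libraries 3 and 4 alone the log2FC was 3.61.

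The share of nuclei with *Nkx2-4* was also followed across the *Trh* threshold, in nuclei that met the rest of the rule. It was 148 of 7022 (2.11%) at 0 *Trh* UMIs, 17 of 645 (2.64%) at 1 and 2 of 58 (3.45%) at 2, just outside the rule. It was 7 of 33 (21.2%) at 3 *Trh* UMIs, just inside, and 8 of 22 (36.4%) at 4 to 5, 7 of 23 (30.4%) at 6 to 9 and 7 of 26 (26.9%) at 10 or more. The share at 3 *Trh* UMIs differed between libraries, at 5 of 13 (38.5%) in fed library 3 and 2 of 14 (14.3%) in fed library 4. Among members the intervals of the 4 bins overlapped, and the median *Trh* count was 5 both in members with and in members without *Nkx2-4*.

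**Figure D2:**
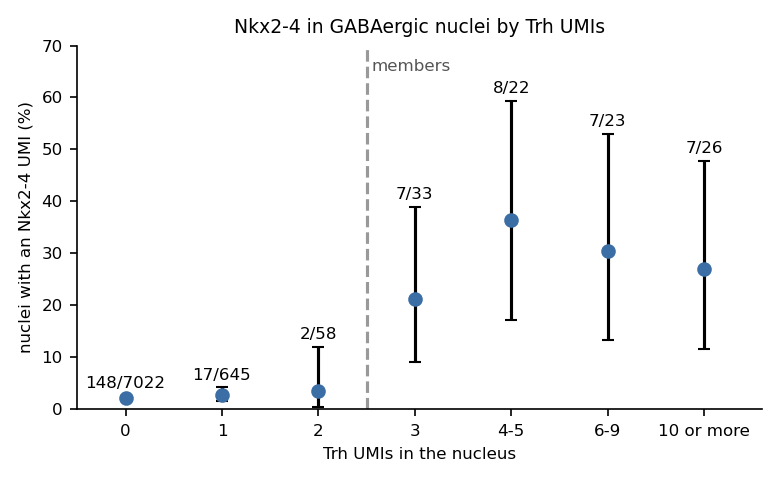
Share of nuclei with an *Nkx2-4* UMI (vertical axis, %) by the number of *Trh* UMIs (horizontal axis) in nuclei that met the rest of the rule, over all 6 libraries. Points are shares, bars 95% exact binomial intervals, and the fractions give nuclei with *Nkx2-4* over all nuclei. The share is at most 3.45% up to 2 *Trh* UMIs and between 21.2% and 36.4% from 3 on.

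Seen from the other gene, GABAergic nuclei that met the rule without regard to *Trh* held *Nkx2-4* in 5, 8, 76 and 66 nuclei of fed libraries 1 to 4 and in 19 and 22 of the fasted libraries. A *Trh* UMI was found in 0, 1, 25 and 20 of these in the fed libraries and in 1 and 1 in the fasted libraries, which is 0%, 12.5%, 32.9%, 30.3%, 5.26% and 4.55%. *Trh* summed over *Nkx2-4*-positive nuclei was 0, 27.9, 194 and 207 CPM in the fed and 30.9 and 6.30 CPM in the fasted libraries, beside 12.3, 11, 32.9, 35.3, 6.23 and 5.48 CPM in *Nkx2-4*-negative nuclei. The *Nkx2-4*-positive nuclei were higher in fed libraries 3 and 4. The direction was not measurable in the other libraries, where at most 1 *Nkx2-4*-positive nucleus held *Trh*. The fasted libraries held more *Nkx2-4*-positive GABAergic nuclei than fed libraries 1 and 2 and fewer than fed libraries 3 and 4.

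*Cxcl12* (ENSMUSG00000061353, chr6:117168535-117181367, plus strand) encodes a chemokine. It was found in 6 members (5.77%, interval 2.15 to 12.1%), 2 in fed library 3 and 4 in fed library 4, against 0.741% of *Trh*-negative GABAergic, 0.450% of *Trh* glutamatergic and 1.5% of oligodendrocyte-marker nuclei. The members' level was 0, 0, 8.32 and 9.39 CPM in the fed libraries and 0 and 0 in the fasted libraries, and that of *Trh*-negative GABAergic nuclei 0.591, 0.460, 1.44, 1.04, 0.733 and 1.05 CPM in the same order. The log2FC was 2.86 (standard error 0.78) and missed the threshold (adjusted p = 0.0959, edgeR), while DESeq2 called it (adjusted p = 0.00347). The log2FC in fed libraries 3 and 4 alone was 2.78 (adjusted p = 0.429, edgeR). The intervals of the shares in members and in oligodendrocyte-marker nuclei overlapped in fed libraries 3 and 4 (2.33 to 13.1% and 0.0291 to 6.24%), and after thinning 1 member kept a *Cxcl12* UMI. Its receptors *Cxcr4* and *Ackr3* were at 0 in members. With 3 counts taken as the limit, which is no binomial interval, 0 of 104 allows a share of up to 2.88% of members with a UMI of either. *Nkx2-4* and *Cxcl12* were found together in 2 members.

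*Glp1r*, the receptor of the incretin GLP-1, was found in 9 members (8.65%), 2 in fed library 3 and 7 in fed library 4, against 2.34% of *Trh*-negative GABAergic, 0.676% of *Trh* glutamatergic and no oligodendrocyte-marker nuclei. Its level in members was 0, 0, 5.55 and 21.1 CPM in the fed and 0 and 0 in the fasted libraries, and its log2FC over *Trh*-negative GABAergic nuclei was 1.72 (standard error 0.60, adjusted p = 0.551, edgeR), and 1.74 in fed libraries 3 and 4 alone (adjusted p = 0.398, edgeR). Of the 9 members, 6 also held *Nkx2-4*, which is 20.7% of *Nkx2-4*-positive and 4.00% of *Nkx2-4*-negative members. Without fed library 4, the share of members with *Glp1r* was 3.92%. *Lepr*, the leptin receptor, was found in 18 members and did not differ past the threshold from *Trh*-negative GABAergic nuclei (log2FC 0.61, standard error 0.34). Of 28 tested receptors and sensors of energy balance, none was called against that class, where 0.159% of all genes were called higher and 0.0822% lower, so the count says nothing particular about these genes.

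Over all genes, members and *Trh*-negative GABAergic nuclei were compared to find what the *Trh* nuclei had in excess of other GABAergic neurons. Of 18253 genes tested, 29 (0.159%) were higher and 15 (0.0822%) lower in members. In fed libraries 3 and 4 alone, 54 (0.306%) of 17653 were higher and 112 (0.634%) lower, and 35 of the 44 genes were called there in the same direction. Those p-values measure the spread between 2 libraries that may be tubes of 1 pool. Without fed library 1, 2, 3 or 4 the test over all libraries called 26, 24, 16 and 14 genes.

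Among transcription factors of regional identity, 39 of 42 were tested, of which 4 were higher and 1 lower, beside 0.159% and 0.0822% of all genes. Their median log2FC was -0.29 against -0.11 over all genes (-0.08 and -0.03 with genes at 0 set to their bound). DESeq2 called 2 of these factors higher and 0 lower, so *Onecut2*, below, was not called lower by it. *Lhx6* (chr2:36081953-36105408, minus strand), a LIM homeobox factor of GABAergic lineages, was at 0, 94.9, 41.6 and 25.8 CPM in members of the fed and 0 and 0 in members of the fasted libraries. *Trh*-negative GABAergic nuclei had between 1.38 and 3.44 CPM of it in every library. The members of fed libraries 3 and 4 were above that range, the value in fed library 2 rests on 1 UMI, and the log2FC was 3.90 (standard error 0.46, adjusted p = 2.19e-13, edgeR). *Pou3f2*, a POU factor of neuroendocrine neurons, was higher by a log2FC of 2.11, and *Sox14*, a factor of GABAergic interneurons, by 2.03. *Onecut2* was lower, with 6.03 CPM over all members against 27.2 CPM (log2FC -2.27). *Isl1*, a LIM factor of arcuate neurons, was found in 42.3% of members and 45.2% of *Trh*-negative GABAergic nuclei and did not pass the threshold (log2FC -0.15, standard error 0.45). *Lhx6* kept its call without any 1 library, whereas that of *Pou3f2* was lost without fed library 4, that of *Sox14* without fed library 1 or 4, and that of *Onecut2* without any 1 library other than fasted library 1. With fed libraries 3 and 4 alone the log2FC was 4.19 for *Lhx6*, 2.02 for *Pou3f2* and -2.19 for *Onecut2*, and *Sox14* missed the threshold (log2FC 2.12, adjusted p = 0.0813, edgeR).

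*Unc13c*, which encodes a protein that primes synaptic vesicles, was higher in members in all 6 libraries. Its level was 1347, 1898, 305 and 625 CPM in the fed and 596 and 2598 CPM in the fasted libraries, against 147, 153, 114, 99.5, 197 and 237 CPM in *Trh*-negative GABAergic nuclei. The groups did not overlap, and the log2FC was 2.32 (standard error 0.39, adjusted p = 9.00e-06, edgeR). The call was lost without fed library 2, 3 or 4 or fasted library 2, and it passed in fed libraries 3 and 4 alone (log2FC 2.05). *Hcrtr2*, an orexin receptor, was likewise higher in every library, from 55.5 to 1684 CPM in members and from 41.1 to 79.0 CPM in the other class (log2FC 1.69, standard error 0.40). Its highest levels came from the libraries with the fewest members, and in fed libraries 3 and 4 alone the log2FC was 0.74 and missed the threshold (adjusted p = 0.162, edgeR), and over all libraries its call was lost without any 1 library and its log2FC turned to -0.31 with *Trh* of at least 5. *Cox6a2*, a respiratory chain subunit known from muscle, was detected in members of fed libraries 3 and 4, at 69.4 and 75.2 CPM, against 11.2 and 8.84 CPM in *Trh*-negative GABAergic nuclei there (log2FC 3.02, standard error 0.34). *Nfix*, *St18*, *Cidea* and *Gpr83* were also called higher, with log2FC between 1.5 and 2.33. *Gm14114*, a long noncoding RNA at chr2:146828327-146839732 on the strand of *Nkx2-4*, was called with a log2FC of 3.24, at 16.6 and 23.5 CPM in members of fed libraries 3 and 4. By DESeq2, 15 genes (0.0822%) were called higher and 6 (0.0329%) lower, of which 9 were among the 44, *Nkx2-4*, *Unc13c* and *Pou3f2* included and *Lhx6* and *Cox6a2* not.

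Of 30 tested neuropeptide genes, 1 was higher and 3 were lower than in *Trh*-negative GABAergic nuclei, beside 0.159% and 0.0822% of all genes, with a median log2FC of -0.38 against -0.11 over all genes (-0.22 and -0.03 with genes at 0 set to their bound). DESeq2 called none of the 30 (7 at an unadjusted p under 0.05). *Nts* (neurotensin) had 24.1 CPM over all members against 136 CPM (log2FC -3.23), and *Pomc*, the melanocortin precursor, 31.4 against 95.7 CPM (log2FC -2.16). *Vip* was at 0 in all members against 14.9 CPM, at least 4.13-fold lower when 3 UMIs over all members are taken as the floor. *Calca* was called higher, but 17 of its 27 UMIs came from 1 nucleus and its log2FC turned to -0.36 without possible doublets. The lower genes that met the rule for naming were, apart from *Nts*, the axon guidance ligand *Slit3*, the channel subunit *Dpp10*, *Adarb2*, *Col25a1*, *Zfp804b*, *Ralyl*, *Il1rapl2* and *Lsamp*. *Lsamp*, a cell adhesion protein, was between 1577 and 3948 CPM in members and between 5001 and 7108 CPM in *Trh*-negative GABAergic nuclei, without overlap (log2FC -1.43, standard error 0.30). The call of *Pomc* was lost without any 1 library, that of *Nts* without fed library 2 or 3 or fasted library 2, and that of *Lsamp* without fed library 2, 3 or 4 or fasted library 1. All 3 passed in fed libraries 3 and 4 alone, with a log2FC of -2.29 for *Pomc*, -3.26 for *Nts* and -0.48 for *Lsamp*.

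Against *Trh* glutamatergic nuclei, 52 of 11979 genes (0.434%) were higher in members and 79 (0.659%) lower, and 129 of these 131 were also called in the same direction in fed libraries 3 and 4 alone, where 557 passed (233 higher, 1.95%, and 324 lower, 2.71%). By DESeq2, 70 (0.584%) were higher and 70 (0.584%) lower, and without fed library 3 or 4 edgeR called 40 and 34. The 2 classes share *Trh* and differ by rule in their transmitter. They also differ by rule in *Sim1*, which had to be at 0 in members and was not limited in the glutamatergic class. Lower levels of paraventricular genes in members are therefore not independent of the rule. Of 17 regional factors tested, 6 were higher: *Lhx6*, *Dlx1*, *Nkx2-4*, *Isl1*, *Foxp2* and *Lhx1*. *Dlx1*, a factor of GABAergic differentiation, had a log2FC of 4.07, and the antisense transcript of its family *Dlx6os1* 5.18. *Nkx2-4* had a log2FC of 3.87 (standard error 0.49) and *Isl1* one of 3.64 (standard error 0.48). *Foxp2* stood at 337, 380, 153 and 98.6 CPM in members of the fed and 217 and 649 CPM in members of the fasted libraries, against 52.5, 8.87, 7.08, 24.1, 6.87 and 11.4 CPM. The groups did not overlap, and the log2FC was 3.12 (standard error 0.45, adjusted p = 7.31e-09, edgeR). Members' levels outside fed libraries 3 and 4 rest on few UMIs. Fed library 2 and fasted library 1 held 4 *Foxp2* UMIs each, and fed library 1 had 1 member with 2970 UMIs in all.

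The other 5 called regional factors were lower: *Ebf1*, *Onecut2*, *Otp*, *Zic1* and *Fezf1*. *Ebf1* was at 0, 0, 11.1 and 9.39 CPM in the fed and 0 and 0 in the fasted libraries, whereas *Trh* glutamatergic nuclei had 205, 541, 196, 259, 268 and 126 CPM. Every library of the glutamatergic class was above every library of the members (log2FC -4.71, standard error 0.65, adjusted p = 6.10e-10, edgeR). The members at 0 held 2970 and 10535 UMIs in all in fed libraries 1 and 2 and 18442 and 10778 in the fasted libraries. In fed library 1 and fasted library 2 a level like that of the glutamatergic class could have been missed. A UMI of *Ebf1* was found in 5.77% of members and 44.8% of *Trh* glutamatergic nuclei, and in 5.13% of *Trh*-negative GABAergic nuclei. *Otp*, a factor of paraventricular and other neuroendocrine neurons, was found in 2.88% and 34.9% (log2FC -3.22, standard error 0.74), a call that was lost without fed library 4. *Unc13c*, which was higher in members than in other GABAergic nuclei, was at 635, 470, 492, 457, 708 and 983 CPM in *Trh* glutamatergic nuclei, overlapped with the members and was not called (log2FC 0.02, standard error 0.20). The relatives *Ebf2* and *Ebf3* were at 0 in members, at least 3.48-fold and 3.42-fold lower.

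The remaining genes that met the rule for naming in this comparison were, on the higher side, the proteoglycan *Gpc4*, *Hcrtr2*, the synaptic adhesion gene *Nrxn3*, *Fbxl7*, the kinase *Dgkb*, *Thrb* and *Sdk1*, with log2FC from 1.82 to 3.77. That of *Sdk1* turned to -0.17 with *Trh* of at least 5, and that of *Thrb* was 0.85 in fed libraries 3 and 4 alone. On the lower side they were the synaptic organizer *Cbln1*, the proteoglycan *Gpc5*, *Nxph4*, *Gm20713*, *Nrn1*, *Sall3*, the neurotrophin *Bdnf* and the angiopoietin *Angpt1*, with log2FC from -4.22 to -3.44. Of 19 neuropeptide genes tested, *Gal* (log2FC 2.18) and *Tac2* (2.77) were higher and *Adcyap1* (-2.82), *Oxt* (-2.23) and *Tac1* (-2.0) lower, beside 0.434% and 0.659% of all genes. DESeq2 called 1 of these 19, *Adcyap1*, and edgeR in fed libraries 3 and 4 alone called 6 higher and 5 lower. For *Oxt* the share of members with a UMI was at the background, and 47 of the 112 *Tac2* UMIs of members came from 1 nucleus. *Hdc*, the histamine-synthesizing enzyme, was called higher with 73 of its 87 UMIs from 1 nucleus. In both class comparisons, which share the members, 12 genes were called higher: *Cidea*, *Cox6a2*, *Gm16272*, *Gpr179*, *Gpr83*, *Hcrtr2*, *Lhx6*, *Nfix*, *Nkx2-4*, *Pbxip1*, *Sema5b* and *St18*. For *Gm16272*, 33 of the 34 UMIs of members came from 1 nucleus.

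Genes that make and sense the hormone were read from fixed lists. Of 10 processing genes tested against *Trh*-negative GABAergic nuclei, none was called, with a median log2FC of 0.18 against -0.11 over all genes. The direction of this median turned by DESeq2, to -0.174 against -0.099 over all genes, with 3 genes above 0 and 7 below. Against *Trh* glutamatergic nuclei 1 of 10 was called. Over all genes 44 of 18253 and 131 of 11979 were called, so 0 of 10 is what the background gives. That gene was *Pcsk2*, a prohormone convertase, at 337, 285, 508 and 383 CPM in members of the fed and 380 and 928 CPM in members of the fasted libraries. *Trh* glutamatergic nuclei had between 1130 and 1601 CPM of it, above all libraries of the members (log2FC -1.85, standard error 0.47, adjusted p = 0.0107, edgeR). The call was lost without fed library 2, 3 or 4 or fasted library 1. *Pam*, which forms the amide end of the hormone, was called higher than in *Trh*-negative GABAergic nuclei in fed libraries 3 and 4 alone (log2FC 0.46, adjusted p = 0.0255, edgeR) and not over all libraries (0.14). Of 8 tested genes of thyroid hormone transport and response, 2 were higher than in *Trh* glutamatergic nuclei, the thyroid hormone receptor *Thrb* (log2FC 1.90) and the transporter *Slc16a10* (2.56), and none was called against *Trh*-negative GABAergic nuclei. For *Slc16a10*, 19 of the 59 UMIs of members came from 1 nucleus.

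Members varied among themselves. *Nkx2-4*-positive members came from fed libraries 3 and 4 for 28 of 29. Over all libraries the comparison with the 75 *Nkx2-4*-negative members called 0 of 5100 genes (0%) by edgeR, with 39 at an unadjusted p under 0.05, and 2 higher (0.0392%) and 8 lower (0.157%) by DESeq2. In fed libraries 3 and 4 alone, 12 (0.235%) were higher and 48 (0.941%) lower in *Nkx2-4*-positive members. *Unc13c* was at 102 and 44.7 CPM in *Nkx2-4*-positive members of fed libraries 3 and 4 and at 404 and 779 CPM in *Nkx2-4*-negative ones (log2FC -2.84, standard error 0.33). *Nfib* was higher at 255 and 168 CPM against 49.4 and 74.3 CPM (log2FC 1.76), and *Cox6a2* at 144 and 134 CPM against 33.0 and 59.5 CPM (log2FC 1.59). In both libraries the *Nkx2-4*-positive members lay on the same side for these 3 genes. The genes passed the threshold in these same 2 libraries, so that agreement is no separate support. The libraries may also be tubes of 1 pool. Over all libraries DESeq2 called *Unc13c* lower (adjusted p = 0.00827) and *St18* higher (adjusted p = 0.00208), and neither *Nfib* nor *Cox6a2*. Of 11 neuropeptide genes tested, 6 were lower in *Nkx2-4*-positive members of fed libraries 3 and 4 alone, among them *Ghrh*, *Gal*, *Sst* and *Tac2*, with log2FC from -3.74 to -1.83. Over all libraries, 0 of these 11 were called by edgeR and 0 by DESeq2. Single *Nkx2-4*-negative nuclei carried 74 of the 100 *Ghrh*, 278 of the 360 *Pmch*, 47 of the 112 *Tac2*, 75 of the 238 *Sst* and 49 of the 240 *Gal* UMIs of members. *Slc16a10* was at 0 in all 29 *Nkx2-4*-positive members, at least 6.85-fold lower than in the others. It was found in 17 members, and 19 of its 59 UMIs came from 1 nucleus.

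**Figure D3:**
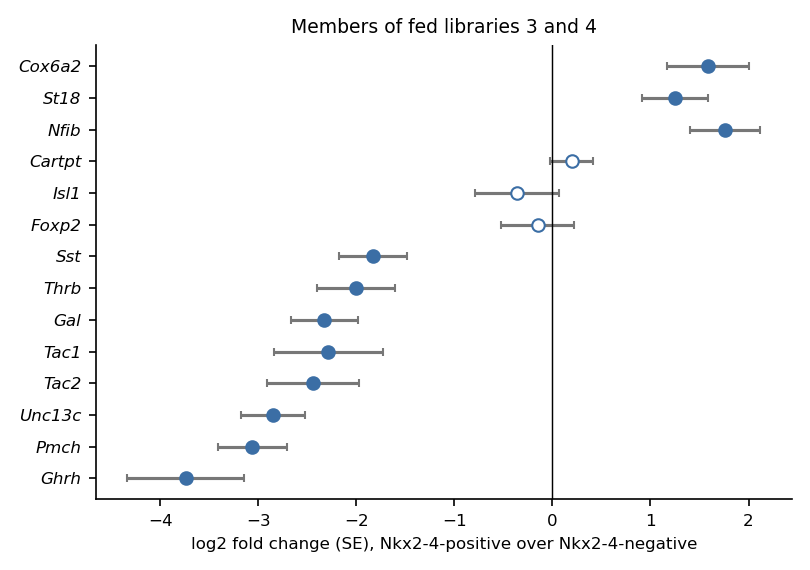
Log2FC of *Nkx2-4*-positive over *Nkx2-4*-negative members in fed libraries 3 and 4 alone (points, with standard errors), for 14 genes. Filled points passed an adjusted p of 0.05 by edgeR. *Nfib*, *Cox6a2* and *St18* lie to the right and *Unc13c*, *Thrb* and 6 peptide genes to the left, while *Cartpt*, *Isl1* and *Foxp2* did not pass.

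At the level of single nuclei, 17 members held 10 or more *Unc13c* UMIs, and none of them held *Nkx2-4* or *Lhx6*. These 17, a group singled out after its values were seen, came from fed libraries 2, 3 and 4 (1, 3 and 11 nuclei) and fasted library 2 (2 nuclei). Of them, 13 held *Hcrtr2*, 12 each held *Foxp2*, *Isl1* and *Cartpt*, and 9 held *Slc16a10*. *Lhx6* was found in 17 members, 7 of which also held *Nkx2-4*. None of *Nkx2-4*, *Lhx6* and 10 or more *Unc13c* UMIs was found in 48 members. Beside *Trh*, 27 members held 1 other listed neuropeptide at 10 or more UMIs, 6 held more than 1 and 71 held none, and 5 of the 29 *Nkx2-4*-positive members held any. The most frequent was *Cartpt*, at 10 or more UMIs in 18 members, followed by *Sst* in 5 and *Gal* and *Tac1* in 4 each. Single nuclei held 74 UMIs of *Ghrh*, 73 of *Hdc* and 278 of *Pmch*, the precursor of melanin-concentrating hormone.

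**Figure D4:**
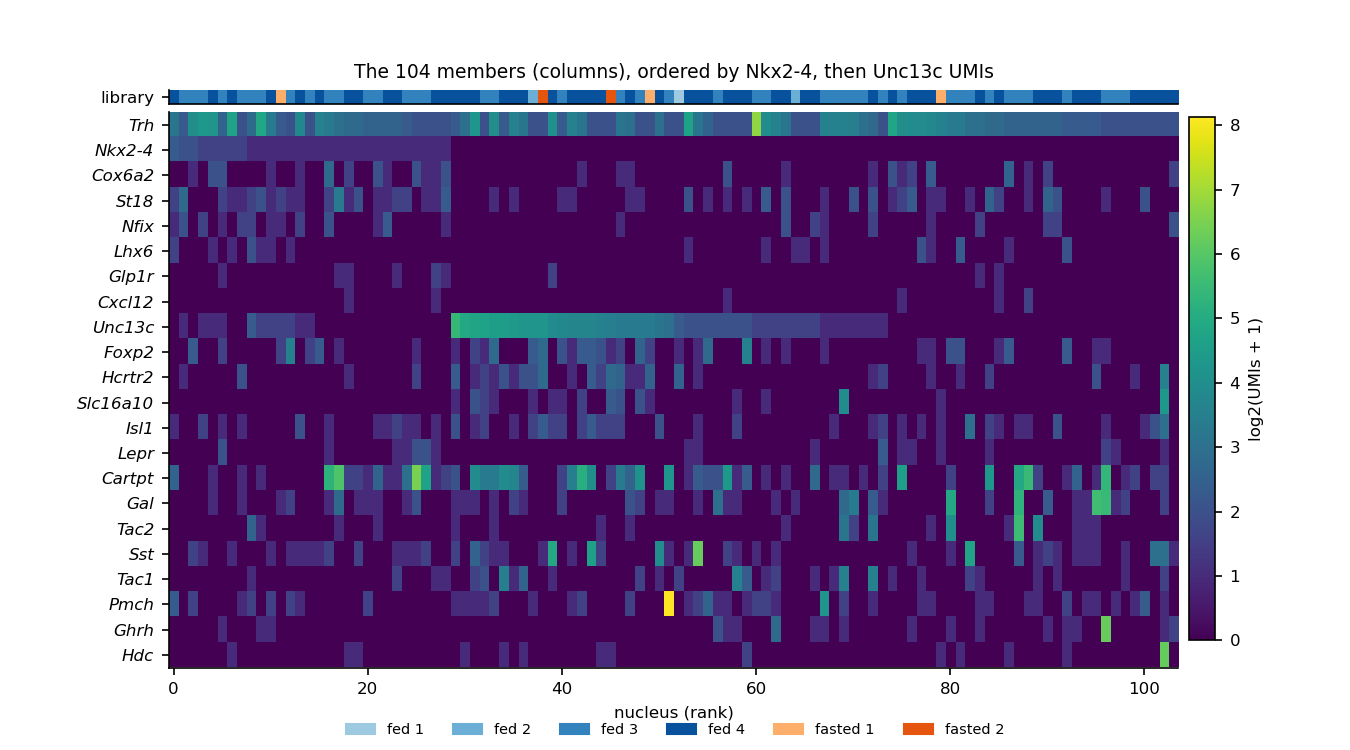
UMIs of 22 genes (rows), as log2(UMIs + 1), in each of the 104 members (columns, ordered by *Nkx2-4* and then *Unc13c*), with the library of each nucleus in the top strip. The 29 *Nkx2-4*-positive members at the left hold at most 4 *Unc13c* UMIs each, and the highest counts of *Pmch* (278), *Ghrh* (74) and *Hdc* (73) each lie in 1 column.

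The fasted state was represented by 5 members with 29220 UMIs, against 99 members of the fed state. By edgeR, 0 of 6505 genes (0%) passed the threshold in either direction, 238 had an unadjusted p under 0.05, and the test recovered no changed gene in simulated counts of this depth, so the 0 is no sign that the states were alike. DESeq2 called 39, 37 higher (0.569%) and 2 lower (0.0307%). The balance of directions differed between fits: edgeR called 21 higher (0.323%) and 141 lower (2.17%) against fed libraries 3 and 4 alone. With fed libraries 1 and 4 as one pool it called 89 higher (1.37%) and 156 lower (2.4%). With fed libraries 1 and 2, which were alike in depth and ribosomal share, as one pool it called 0. Fed and fasted libraries did not overlap for 514 genes that were higher (7.9%) and 192 that were lower (2.95%) in the fasted libraries. The genes that met the rule for a description on the higher side were *1700016P03Rik*, *Gpc4*, *Dlx6os1*, *Pde10a* and *Sv2c*. *Pde10a*, a phosphodiesterase, stood at 673, 475, 505 and 599 CPM in the fed and 5043 and 3804 CPM in the fasted libraries (log2FC 3.12, standard error 0.78, adjusted p = 0.425, edgeR). Both fasted libraries lay above all fed ones. DESeq2 called *Pde10a* (adjusted p = 5.14e-06) and *Dlx6os1* (adjusted p = 3.49e-13), and not *1700016P03Rik*, *Gpc4* or *Sv2c*. *1700016P03Rik* was at 0, 0, 41.6 and 14.1 CPM against 1518 and 92.8 CPM. The same nucleus of fasted library 1 held 25 of that library's 28 UMIs of *1700016P03Rik*, 14 of 17 of *Dlx6os1*, 11 of 11 of *Gpc4* and 59 of 93 of *Pde10a*. Without possible doublets 1 fasted member remained, and it held no *Dlx6os1* UMI. On the lower side *Zdhhc20*, *Park7*, *Nbeal1*, *Mrfap1* and *Hnrnpm* were at 0 in all 5 fasted members, at least 1.32-fold to 1.73-fold lower against a floor of 3 UMIs over the group. Fewer such cells and less *Trh* RNA per cell cannot be told apart in these counts, since a nucleus with less *Trh* would not have met the rule.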

How the data were processed

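Per the paper and the labels, the authors mapped 10x Genomics v3 nucSeq reads with Cell Ranger 5.0.1 to mm10 (GRCm38), and the deposited values are raw UMI counts per gene and nucleus for 55399 genes, and cell types of the study were not used here. Members were found by the stated rule, and the members and gene lists were chosen with earlier results of these data known. Counts of a class were summed by library, and the fed libraries were joined into 2 pools. Because the labels do not pair them, edgeR's quasi-likelihood test (edgeR 4.0.16, R 4.3.3, TMM, pool as block between classes) was fitted under each of 3 pairings and the largest p of each gene kept, adjusted by the Benjamini-Hochberg method with a threshold of 0.05. The single fasted pool carries no spread of its own and was given that of the fed pools, so p-values measure the spread between these samples. Genes needed 10 counts in at least 2 sums. The 7 genes of the rule, and *Nkx2-4* in the comparison split by it, were left out of calls. Named genes were the 10 with the largest log2FC in each direction among called genes, with 50 CPM or more in the higher class and the same direction in all 6 libraries, and for fasting, with fewer than 5 calls, the 5 without overlap between conditions. Values of other genes come from the lists or from what single nuclei showed. CPM are per 1000000 UMIs of the class, or of the library where stated. Exact binomial intervals (95%) and floors of 3 counts cover counting error only. No doublet caller was run, and possible doublets were left out as an alternative. The test was checked on simulated counts with known changes, where it made no false call but recovered few of the changed genes in the class comparisons and none for fasting or the split by *Nkx2-4*. DESeq2 1.42.0, library totals, no count filter, other pairings, separate libraries, *Trh* of at least 5, depth limits and left-out libraries were alternatives. Sequences and positions are from GENCODE (GRCm38).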

Additional observations from a re-analysis of the deposited data

How the results depend on the processing

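Profiles of the *Trh*-negative GABAergic nuclei, summed by library over 10643 genes, correlated at 0.991 between fed libraries 1 and 2 and at 0.997 between fed libraries 3 and 4. Across these pairs the correlation was 0.839 to 0.844. With the fasted libraries it was 0.959 to 0.961 for fed libraries 1 and 2 and 0.805 to 0.809 for fed libraries 3 and 4. Fed libraries 1 and 2 taken as one pool gave 0 genes for fasting and 56 against *Trh*-negative GABAergic nuclei by edgeR. With fed libraries 1 and 3 as one pool, edgeR called 10 genes for fasting, 276 against *Trh*-negative GABAergic nuclei, 397 against *Trh* glutamatergic nuclei and 17 between members with and without *Nkx2-4*. With libraries 1 and 4 as one pool these counts were 245, 299, 445 and 17, and with 6 separate samples 3, 185, 354 and 16. DESeq2 called 39 genes for fasting, 21 against *Trh*-negative GABAergic nuclei and 10 between members with and without *Nkx2-4*. Without a filter on low counts, 83 genes were called against *Trh*-negative GABAergic nuclei. With *Trh* of at least 5, 13 and 8 genes were called in the 2 class comparisons, and without possible doublets 22 and 24. Between 4000 and 12000 UMIs, 86 were called against *Trh* glutamatergic nuclei. Fed libraries 3 and 4 alone, an alternative chosen after seeing the data in all but the fasting comparison, gave 162 for fasting, 166 and 557 in the class comparisons and 60 between members with and without *Nkx2-4*. With each library left out in turn, from 14 (without fed library 4) to 39 genes were called against *Trh*-negative GABAergic nuclei and from 34 (without fed library 4) to 116 against *Trh* glutamatergic nuclei, and none for fasting or, where the fit could be made, between members with and without *Nkx2-4*. Counts against *Trh*-negative GABAergic nuclei were 26, 24 and 16 without fed library 1, 2 and 3, and against *Trh* glutamatergic nuclei 40 without fed library 3. The cause of these shifts was not tested.

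Thinned to 2000 UMIs, the share of members with a UMI was 7.69% for *Nkx2-4*, 0.962% for *Cxcl12* and 2.88% for *Glp1r*, since thinning removes UMIs. The share with *Glp1r* ran from 3.92% without fed library 4 to 11.5% without fed library 3. The log2FC turned to -0.17 for *Sdk1* (glutamatergic comparison) and -0.31 for *Hcrtr2* (*Trh*-negative comparison) with *Trh* of at least 5 and to -0.36 for *Calca* (*Trh*-negative comparison) without possible doublets. For *Dlx6os1* (fasting) the fitted log2FC without possible doublets was -6.88, but 1 fasted member remained there and held no UMI of it, so the value is no measured reversal.

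The difference in the share of members was 0.0212 percentage points against fed libraries 1 and 2 alone, chosen after seeing the data (exact permutation p = 0.333), in place of -0.345. With the replicate number as a block over libraries 1 and 2 of each condition it was also 0.0212 (exact permutation p = 0.5, the smallest possible), and the blocked edgeR fit called 0 of 99 genes. The numbers were not taken to pair samples: in *Trh*-negative GABAergic nuclei, deviations of same-numbered libraries had a correlation of 0.00954 over 10643 genes. The fasting comparison could not be fitted with *Trh* of at least 5, nor the comparison by *Nkx2-4* with that rule, without possible doublets or without fasted library 1. Few members outside fed libraries 3 and 4, and 5 in the fasted state, limit what could be detected.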
